A study of Mus musculus with 2 samples.

Results

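The cells described here are 499 macrophages of a normal mouse pancreas, chosen by sums of marker genes. They made up 10.8% of the 4616 cells of that library that passed the filter (exact binomial 95% interval 9.93 to 11.7), and both libraries of the study together held 7189 such cells. A cell passed the filter with at least 500 genes and 1000 UMIs (unique molecular identifiers, each standing for 1 captured RNA molecule) and at most 10% mitochondrial UMIs. The choice rested on 5 sums, each scaled to 10000 UMIs of the cell. The sum of 7 myeloid genes (Cd68, Csf1r, C1qa, C1qb, Lyz2, Tyrobp and Fcer1g) had to reach 50. That of 4 fibroblast genes (Col1a1, Col1a2, Col3a1, Dcn) had to stay under 50, and that of 4 endothelial genes (Pecam1, Cdh5, Kdr, Flt1) under 20. The sum of Marco, Cd5l, Timd4, Fcna and Cxcl13, called the Marco gate, had to stay under 10, and the sum of Cd209f, Folr2, Cbr2, F13a1 and Mrc1, called the Cd209f gate, had to reach 10. All of these values come from the same cells that are described below, so the levels of the gate genes are a description and no evidence of a type.

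The study sequenced pancreas cells of Rosa26mTmG/+;Fabp4-Cre mice, in which Cre made from the Fabp4 promoter turns on green fluorescent protein (GFP), as 1 normal and 1 tumour library of the 10x Genomics 3′ assay. The normal library holds GFP-positive cells from mice of 6 to 9 weeks. The tumour library holds cells sorted for GFP and for PDPN, a surface protein of fibroblasts, from mice of the same genotype that received an orthotopic graft of FC1245 pancreatic cancer cells at 8 weeks of age and were killed 21 days later. Pronase, DNase and collagenase P were used to free the normal cells. For tumours collagenase IV, DNase and dispase were used, then trypsin. The samples are labelled as normal stellate cells and as cancer-associated fibroblasts, so macrophages are not the cells that the labels name. The number and sex of the mice were not given in the sources used here. Since each group is 1 library, no test between groups was possible, and every interval below covers counting error only.

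Resident macrophages take up dying cells, debris and iron in most tissues and are long-lived, self-renewing or slowly replaced by blood monocytes. Those that lie along blood vessels are known for the mannose receptor Mrc1 (CD206), the folate receptor Folr2, the hyaluronan receptor Lyve1, the haemoglobin receptor Cd163 and lectins of the Cd209 family. Others in the same tissues carry little Lyve1 and much MHC class II, the molecule that shows peptides to CD4 T cells. They can carry the receptors Cx3cr1 and Ccr2, of which Ccr2 marks cells of recent monocyte origin.

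The label given to the cells names Cd209f, Folr2, Mrc1, Clec10a, F13a1 and Cbr2. All of these but Clec10a belong to the Cd209f gate. Their counts in the chosen cells are thus a description and no support for the label. The cells of the endothelial and fibroblast gates, given for reference, did not have to reach that gate. Every one of the 499 cells had a UMI of Mrc1, and 375 had a UMI of at least 4 of the 5 genes of the Cd209f gate. Cd209f itself, a C-type lectin, was found in 33.5% of them at a median depth of 6989 UMIs, and by itself it reached the gate in 69 cells. The share of cells with a Cd209f UMI was 1.18% in the endothelial gate (median 4004 UMIs) and 1.45% in the fibroblast gate (median 9034 UMIs) of the same library. After thinning each cell to 3500 UMIs, which left out 49 of the 499, the shares were 30.4%, 0.965% and 0.551%. The label does not set these cells apart from the cells that were left out for the Marco gate. Of the 747 myeloid cells that reached 10 in the Marco gate, 706 (94.5%) reached 10 in the Cd209f gate as well, and 422 (56.5%) were in that group through Fcna alone, the gene of the blood lectin ficolin A. None of the 6 label genes was called higher in the 499 cells than in the 747. The 499 cells are called Mrc1 macrophages below because each had a UMI of Mrc1, although Mrc1 does not set them apart from the 747 either. The 747 are called Marco-gate cells, the 422 of them Fcna-only cells, and the 143 myeloid cells under 10 in both gates other myeloid cells.

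**Figure D1:**
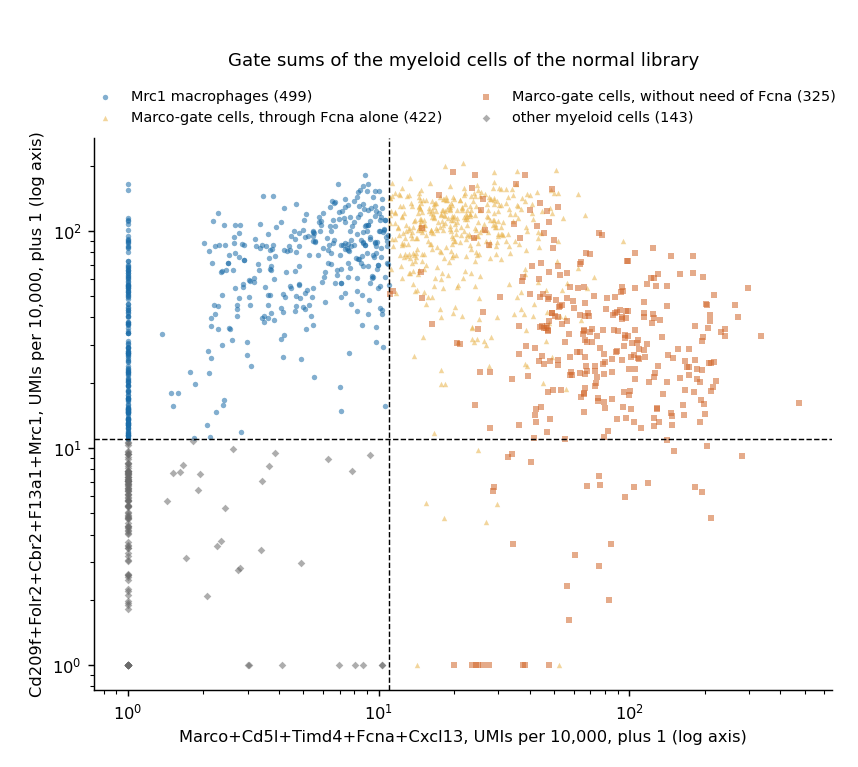
Each point is 1 of the 1389 cells of the normal library that passed the myeloid, fibroblast and endothelial limits, with the sum of the Marco gate on the x axis and of the Cd209f gate on the y axis, both in UMIs per 10,000 plus 1 on log axes. Dashed lines mark the limit of 10. The Mrc1 macrophages (499) run into the Fcna-only cells (422) at the vertical line, while most Marco-gate cells that do not need Fcna (325) lie further right and lower.

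The cells just inside and just outside the limits show how continuous the choice was. The Mrc1 macrophages had a median of 58.0 in the Cd209f gate, and 26 of them lay within 20% of the limit of 10, where 13 cells lay just below it. In the Marco gate 64 of them lay within 20% under the limit and 43 cells that met the other limits lay as close above it. The nearest values to that limit were 9.95 inside and 10.1 outside.

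Positions are those of the GENCODE annotation of the mouse genome build GRCm38. Cd209f spans chr8:4102787-4105835 on the minus strand and its paralog Cd209g chr8:4134098-4137707 on the plus strand. Folr2 spans chr7:101839988-101857194, Mrc1 chr2:14229392-14332057, F13a1 chr13:36867178-37050244, Cbr2 chr11:120729489-120732114 and Clec10a chr11:70156197-70170834. The 3′ counts of Cd209f and Cd209g followed each other from cell to cell in the Mrc1 macrophages (Spearman rho 0.79 over 499 cells of 1 library, which share their depth). Because these paralogs are close copies, reads could be split between them in the counting. The stretches before their starts are shown because they are copies of each other too, with the letters of the AP-1 element TGANTCA, searched on both strands, in capitals. The first is chr8:4105836-4106014, minus strand, and the second chr8:4134486-4134651, plus strand, both from RefSeq in GRCm38.p6. They are 179 and 166 bases of RefSeq windows of 250, without the last 71 and 84, which GENCODE annotates as untranslated sequence because its starts lie further upstream. The Cd209g stretch lies inside the gene span given above, which a retained-intron transcript of GENCODE extends upstream.
Cd209f: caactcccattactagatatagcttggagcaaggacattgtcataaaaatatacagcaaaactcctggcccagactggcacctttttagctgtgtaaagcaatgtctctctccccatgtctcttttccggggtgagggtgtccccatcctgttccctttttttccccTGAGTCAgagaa
Cd209g: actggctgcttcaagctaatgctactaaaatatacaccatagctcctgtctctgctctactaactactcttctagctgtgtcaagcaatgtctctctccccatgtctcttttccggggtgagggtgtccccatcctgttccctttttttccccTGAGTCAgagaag
The pair share an unbroken stretch of 83 bases, which runs to the end of the Cd209f sequence and to 1 base before the end of that of Cd209g. The AP-1 letters begin 12 bases before the end of the Cd209f sequence and 13 before that of Cd209g. They occur in 4.89% of the 32851 mouse promoter windows of the table over their first 179 bases and in 4.57% over their first 166.

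The Mrc1 macrophages held the RNAs of macrophages at high level. Of the genes below, Lyz2, C1qa and C1qb belong to the myeloid gate, so the rule selected for them and their levels are a description. Expression is given as CPM, the UMIs of a gene per 1000000 UMIs summed over the cells of a class. The cells gave 3631001 UMIs in all. Among the genes with the highest levels were Malat1 at 35107 CPM, Apoe, the lipid carrier, at 23741 CPM, Lyz2, a lysozyme, at 10960 CPM, and Cd74, the chaperone of MHC class II, at 9768 CPM. The complement genes C1qa at 5050 CPM and C1qb at 4634 CPM followed. Adgre1, the gene of the macrophage antigen F4/80, had 446 CPM and a UMI in 85.8% of the cells, and Ptprc, the pan-leukocyte gene, had 542 CPM in 88.2%.

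Other cell types left few UMIs in them, apart from the exocrine pancreas. The 14 endothelial markers summed to 111 CPM, against 21361 CPM in the cells of the endothelial gate. The 14 fibroblast markers summed to 275 CPM, against 49336 CPM in the cells of the fibroblast gate. Both lists include the genes of these gates, whose sums the rule kept low in the Mrc1 macrophages. The same gates name the cells compared, so both contrasts are partly set in advance and are a description. In the Mrc1 macrophages the gate genes gave 25.9 CPM of the endothelial and 66.4 CPM of the fibroblast sum. Markers of T or NK cells summed to 7.16 CPM with Cd3e, Cd3g, Cd8a and Nkg7 at 0, and neutrophil markers to 22.9 CPM with S100a8, S100a9 and Ly6g at 0. The 16 acinar genes, which encode mostly digestive enzymes and are not known as genes of macrophages, summed to 4652 CPM. That sum was 1469 CPM in the Marco-gate cells, 3330 CPM in the other myeloid cells, 1271 CPM in endothelial-gate and 2159 CPM in fibroblast-gate cells. Clps, the gene of colipase, gave 22.8% of the acinar UMIs in the Mrc1 macrophages and 21.4% in the Marco-gate cells, but 9.33% in the endothelial-gate cells and 13.7% in the fibroblast-gate cells. The part of acinar RNA in the results below was not tested, except where values without the cells richest in it are given.

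Fabp4, whose promoter drives the Cre that marked the cells, was low. It had 49.3 CPM (42.3 to 57.1) in the Mrc1 macrophages, with a UMI in 14.03% of cells. The Marco-gate cells had 103 CPM, the other myeloid cells 104 CPM, the cells of a B cell gate 70.1 CPM with a UMI in 15.9% (median 9720 UMIs), and the endothelial-gate cells 10016 CPM. By the clusters described below, Fabp4 had 183.8 CPM (150.8 to 221.9) with a UMI in 30.9% of the Mrc1 macrophages of cluster 4, and 21.1, 21.0 and 42.8 CPM in those of clusters 1, 3 and 5.

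Cells of both sexes took part. Of the Mrc1 macrophages 193 had UMIs of Xist and none of 4 Y-linked genes, 196 the reverse, 105 neither and 5 both. Between the Xist-only and the Y-only cells 12 of 5977 genes were called different by at least 2-fold, of which 7 (0.117%) were higher in the Xist-only and 5 (0.0837%) in the Y-only cells. Xist, Ddx3y and Eif2s3y were among them by the definition of the classes. The others, named after their values were seen, were Prg4, Thbs1, Ptgs2, Iigp1, Fgl2 and Il10 on the Xist-only side and Fabp4, Cxcl10 and Il6 on the Y-only side. Cd209f had 372 CPM in the Xist-only and 339 CPM in the Y-only cells, Folr2 913 and 900 CPM, and Mrc1 1987 and 2276 CPM.

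The question for the comparison with the Marco-gate cells was which genes differ apart from those of the gates. A gene was called different if the sums differed by at least 2-fold, the exact 95% interval of their ratio excluded 1 and either sum had at least 50 CPM, among genes with at least 20 CPM in either. Of 6037 genes 82 (1.36%) were called higher in the Mrc1 macrophages and 149 (2.47%) lower, and the median log2 fold over all of them was -0.03. MHC class II genes and the receptors Ccr2 and Cx3cr1 were higher in the Mrc1 macrophages. Saa3, Prg4, Vsig4, several complement and inflammatory genes and Lyve1 were lower.

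Of the genes of the Marco gate, Fcna had 202 CPM in the Mrc1 macrophages and 2524 CPM in the Marco-gate cells, by the rule. The genes of the Cd209f gate were required of the Mrc1 macrophages and not of the Marco-gate cells, so their levels are selected for the former alone and are a description. Cd209f had 382 CPM (362 to 403) in the Mrc1 macrophages, 691 CPM (672 to 711) in all Marco-gate cells and 1062 CPM in the Fcna-only cells. Folr2 had 939, 1422 and 1947 CPM in the same order, and F13a1, the subunit of clotting factor XIII, had 1603, 1901 and 2867 CPM. Cbr2, a carbonyl reductase, had 937, 917 and 1309 CPM, and Clec10a, a lectin for galactose sugars, had 374, 421 and 733 CPM. Mrc1 had 2194, 1742 and 2677 CPM. All 6 label genes were thus highest in the Fcna-only cells and none differed by 2-fold between the Mrc1 macrophages and the whole Marco-gate class, where their median log2 fold was -0.21.

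**Figure D2:**
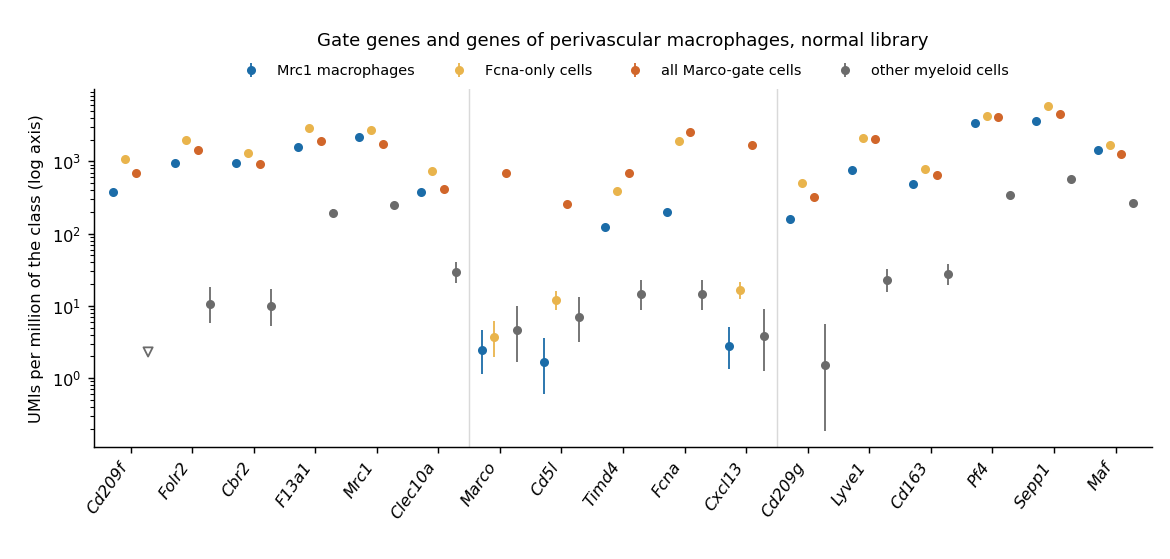
CPM of each gene (log axis) in the Mrc1 macrophages, the Fcna-only cells, all Marco-gate cells and the other myeloid cells of the normal library, with exact Poisson 95% intervals. An open triangle marks 0 UMIs and stands at the level of 3 UMIs. The Fcna-only cells lie above the Mrc1 macrophages for the 6 label genes, and the other myeloid cells lie lowest, with Cd209f at 0 UMIs.

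MHC class II genes were higher as a group. Of 12 measured genes of the presentation list 6 were called higher in the Mrc1 macrophages and 1 lower, and their median log2 fold was 2.12. Cd74 had 9768 CPM against 2467 CPM, a ratio of 3.96 (3.89 to 4.03). H2-Ab1, the beta chain of I-A, had 3789 CPM against 738 CPM, a ratio of 5.13 (4.97 to 5.30). H2-Aa, its alpha chain, had 4355 against 991 CPM and H2-Eb1, the beta chain of I-E, 3390 against 607 CPM. The peptide-loading genes H2-DMb1, with 311 against 70.5 CPM, and H2-DMa, named for the count alone, completed the 6, and Cd40, a receptor of co-stimulation, was the gene called lower. Across single Mrc1 macrophages H2-Ab1 ran from 0 to 242 UMIs per 10000 with a median of 26.5, and 82.2% of the cells had a UMI. H2-Ab1 and H2-Aa went together across the cells (Spearman rho 0.94, n = 499), and H2-Ab1 and Lyve1 went opposite ways (rho -0.50), over cells of 1 library that share their depth.

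The windows before the starts of H2-Aa and H2-Eb1 are shown because these genes moved together across classes. The capitals mark the letters CCAAT on either strand, the core of the Y box that is known in promoters of this family. They are chr17:34287824-34288073, minus strand, and chr17:34305617-34305866, plus strand, from RefSeq in GRCm38.p6, where the tables hold an entry for these 2 of the 3 chain genes named above.
H2-Aa: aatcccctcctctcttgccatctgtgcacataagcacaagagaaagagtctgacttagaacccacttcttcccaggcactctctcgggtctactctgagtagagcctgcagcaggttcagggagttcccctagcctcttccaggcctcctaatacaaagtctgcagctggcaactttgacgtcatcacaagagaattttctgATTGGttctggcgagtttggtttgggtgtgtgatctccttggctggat
H2-Eb1: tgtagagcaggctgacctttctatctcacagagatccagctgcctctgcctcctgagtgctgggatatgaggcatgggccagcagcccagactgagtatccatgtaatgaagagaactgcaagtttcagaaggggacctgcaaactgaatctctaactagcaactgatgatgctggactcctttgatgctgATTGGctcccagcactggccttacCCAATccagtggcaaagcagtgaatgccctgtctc
The H2-Eb1 window overlaps an exon of the antisense gene Gm20513 in GENCODE. The match on the reverse strand begins 48 bases before the start of H2-Aa and 59 before that of H2-Eb1. Of all promoter windows of this length 33.8% hold CCAAT on either strand, so the match is a description.

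Monocyte genes were mixed. Of 12 measured genes of that list Ccr2, Cx3cr1 and Lyz1 were called higher and Fn1 lower, and the list's median log2 fold was -0.31. Cx3cr1, the fractalkine receptor, had 346 CPM in the Mrc1 macrophages and 13.7 CPM in the Marco-gate cells, a ratio of 25.2 (20.5 to 31.3), and was found in 41.5% and 3.61% of cells. Ccr2, the receptor that brings monocytes into tissue, had 317 against 27.7 CPM and was found in 23.8% and 4.28% of cells. Lyz1, another lysozyme gene, had 702 against 163 CPM, but in fewer cells (18.8% against 24.8%), and with the Cd209f gate at 20 its log2 fold turned to -0.31. Fn1, fibronectin, had 575 against 2041 CPM. Other genes with the highest folds were Olfm1 at 60.0 against 5.66 CPM, Basp1 at 97.2 against 11.3 CPM, Tnip3, an inhibitor of NF-kB signalling, at 191 against 28.7 CPM with 620 of its 692 UMIs in the 55 Mrc1 macrophages of cluster 4 described below, Cd52 at 646 against 105 CPM, and the integrin chain Itgb5 at 96.4 against 20.1 CPM. With the Mrc1 macrophages of clusters 1 and 3 alone, the log2 fold of Ccr2 was 0.81 in place of 3.51, that of Tnip3 -1.56 and that of Lyz1 -2.37. Fcrls, a marker of microglia and of other resident macrophages, had 695 CPM in 87.8% of the Mrc1 macrophages against 188 CPM in 43.98% of the Marco-gate cells.

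Receptors, factors and lectins were called in both directions. Of 28 measured growth factor and cytokine receptors 2 were called higher, the type I TGF-beta receptor Tgfbr1 at 75.2 against 20.7 CPM and the BMP receptor Acvrl1 at 67.5 against 26.04 CPM, and 2 lower, Ednrb and Fgfr1. Of 33 measured macrophage transcription factors 1 was called higher, Runx1 at 265 against 119 CPM, and 4 lower, among them Id3 at 63.6 against 376 CPM. The Fc receptors Fcrls and Fcgr1 (133 against 61.4 CPM) were the 2 of 7 called higher, and of 19 measured lectins Clec4a2 and Clec12a were called higher and Cd209b, Cd209d, Clec4d and Clec4e lower. Trem2, a lipid-sensing receptor, had 197 against 93.7 CPM.

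**Figure D3:**
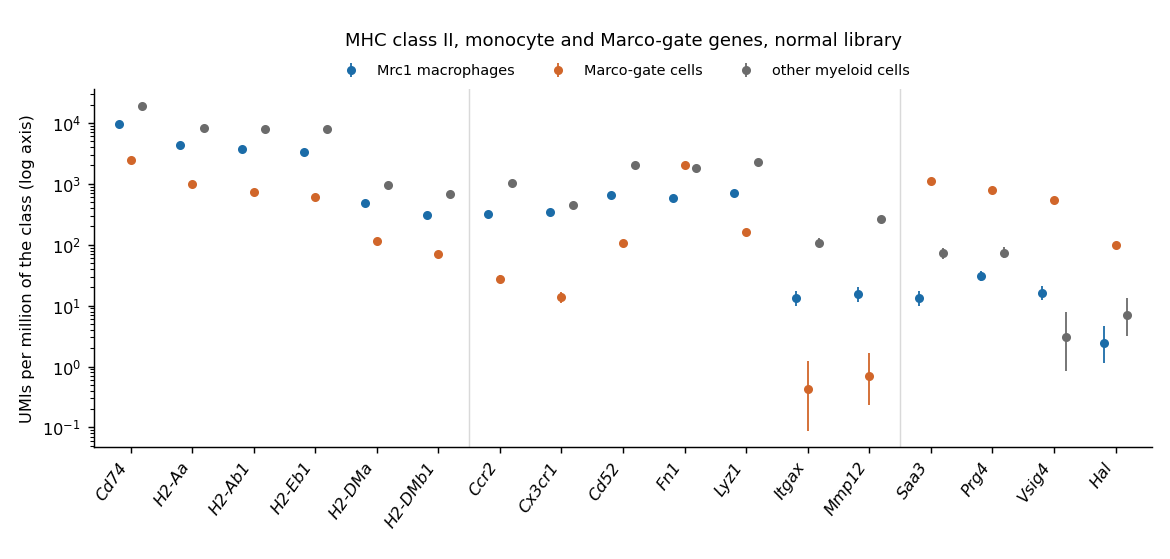
CPM (log axis) of MHC class II genes, genes of monocytes and genes of the Marco-gate cells in the 3 myeloid classes of the normal library, with exact Poisson 95% intervals. For the 6 MHC class II genes the Mrc1 macrophages lie between the Marco-gate cells and the other myeloid cells, and for Saa3, Prg4, Vsig4 and Hal they lie far below the Marco-gate cells.

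The genes lower in the Mrc1 macrophages were led by some that are known from macrophages of the body cavities and the liver. Saa3, an acute phase protein, had 13.2 CPM against 1097 CPM in the Marco-gate cells, a ratio of 83.0 (62.5 to 113) in favour of the latter. Prg4, lubricin, had 30.3 against 779 CPM, the complement receptor Vsig4 16.2 against 533 CPM, the arginine transporter Slc7a2 1.93 against 102 CPM, histidine ammonia-lyase Hal 2.48 against 98.9 CPM, and Icam2 6.33 against 123 CPM. Of 11 measured neighbours of the Marco group 5 were called lower and none higher.

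Complement, inflammatory and perivascular lists held called genes on the lower side alone. Of 15 measured complement genes 6 were called lower, among them C3 at 14.9 against 132 CPM and the integrin chain Itgb2 at 139 against 373 CPM, and none higher. Of 21 measured inflammatory genes 8 were called lower and none higher, among them Cxcl1 at 215 against 724 CPM and Il1a at 14.05 against 86.9 CPM. Of 21 perivascular genes 4 were called lower and none higher, with a median log2 fold of -0.31. Lyve1 had 763 CPM in 63.9% of the Mrc1 macrophages and 2011 CPM in 94.0% of the Marco-gate cells. The endothelin receptor Ednrb had 210 against 693 CPM, and the others called were Timd4, a gate gene, and Ltc4s, named for the count alone. Of 13 measured scavenger receptors 4 were called lower and 1, Cxcl16, higher. The 4 were Lyve1, the gate genes Marco and Cd5l, and Msr1 at 129 against 429 CPM.

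The values also depend on Fcna as a gate gene. Against the 325 Marco-gate cells that pass without Fcna, 171 genes (2.78% of 6146) were called higher in the Mrc1 macrophages and 258 (4.2%) lower. Against the 422 Fcna-only cells 66 (1.11% of 5944) were called higher and 51 (0.858%) lower. If Fcna is left out of the gate altogether, the rule takes 914 cells in place of 499, and the log2 fold of Lyve1 against the remaining Marco-gate cells is -0.42 in place of -1.40.

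Acinar RNA moved with the comparison too. Of 15 measured acinar genes 14 were called higher in the Mrc1 macrophages than in the Marco-gate cells, with a median log2 fold of 1.69, Clps at 1062 against 315 CPM. Without the Mrc1 macrophages of the cluster that acinar genes lead, described below, the log2 fold of Clps fell to 0.75, while that of H2-Ab1 was 2.53 in place of 2.36.

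Against the other myeloid cells of the same library, the genes of resident perivascular macrophages were higher in the Mrc1 macrophages and those of monocytes and of MHC class II lower. Of 6046 genes 243 (4.02%) were called higher in the Mrc1 macrophages than in these 143 cells and 156 (2.58%) lower, and the median log2 fold over all was 0.07. All 21 perivascular genes were called higher, with a median log2 fold of 3.05. Of 14 measured monocyte genes 7 were called lower and 1, Ms4a6c, higher. The genes of the Cd209f gate divide these classes by the rule, and Folr2 is a perivascular gene as well. Timd4, a gene of the Marco gate, is on that list too, and the sum of that gate stayed under 10 in both classes. The list was chosen with earlier results of these data known, so its count is a description.

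The rule kept the sum of the Cd209f gate under 10 in the other myeloid cells and set no limit for a single gene. Cd209f had 0 UMIs in these cells, which allows up to 2.30 CPM, and was at least 166-fold higher in the Mrc1 macrophages. Folr2 had 10.8 CPM there against 939 CPM, Cbr2 9.99 against 937 CPM, F13a1 194 against 1603 CPM and Mrc1 247 against 2194 CPM. Genes outside the rule followed. Lyve1 had 763 CPM against 23.0 CPM, a ratio of 33.1 (23.1 to 49.1), and Cd163 492 against 27.7 CPM. Gas6, the bridge between dying cells and their receptors, had 522 against 19.98 CPM, the growth factor binder Igfbp4 416 against 39.2 CPM, and the platelet factor gene Pf4 3451 against 348 CPM. Sepp1 (Selenop), the selenium carrier, had 3677 against 577 CPM. Tslp, an epithelial cytokine that acts on dendritic cells, had 58.4 CPM in the Mrc1 macrophages against 1 UMI in the other myeloid cells, and Bmp2 had 240.2 against 9.99 CPM.

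Receptors and iron genes were also among the genes called higher. Of 12 measured scavenger receptors 5 were called higher and none lower, among them Stab1 at 683 against 83.7 CPM and Colec12 at 106 against 3.84 CPM. Of 16 measured iron and haem genes 6 were called higher and none lower. The iron exporter Slc40a1 had 79.6 CPM against 0 UMIs, at least 34.5-fold more, the transferrin gene Trf 935 against 296 CPM, and its receptor Tfrc 76.8 against 7.68 CPM. Of 32 measured transcription factors 5 were called higher and 4 lower, with a median of 0.00 on the log2 scale. Maf had 1429 against 264 CPM, a ratio of 5.42 (4.86 to 6.07), and Mef2c 531 against 212 CPM. The complement receptor C5ar1 had 412 against 98.3 CPM, and the recycling Fc receptor Fcgrt 497 against 75.3 CPM.

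Chemokines were called in both directions. Of 17 measured genes 7 were called higher and 3 lower. The monocyte attractant Ccl2 had 1764 against 463 CPM, the eotaxin Ccl24 588 against 68.4 CPM, Ccl12 317 against 10.8 CPM, and Ccl8 213 CPM against 2 UMIs. The 3 called lower were Ccl5, Cxcl9 and Cxcl10, the last named for the count alone. Ccl5 had 3.58 against 63.0 CPM, the latter from 2.10% of the other myeloid cells, and Cxcl9 3 UMIs in 1 cell against 59.9 CPM from 2.80% of cells.

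Genes of monocytes and their progeny were lower. Ccr2 had 317 against 1013 CPM, Fn1 575 against 1821 CPM, Lyz1 702 against 2317 CPM and Il1b 249.5 against 751 CPM. The elastase Mmp12 had 15.4 against 266 CPM, the integrin Itgax (CD11c) 13.2 against 108 CPM, the interleukin-7 receptor Il7r 3.58 against 51.5 CPM, the clotting factor F10 9.36 against 94.5 CPM, and the transcription factor Bhlhe40 44.1 against 211 CPM. MHC class II stood the other way from the comparison with the Marco-gate cells. Of 13 measured genes 4 were called lower in the Mrc1 macrophages and none higher, H2-Ab1 at 3789 against 7994 CPM and H2-Eb1 at 3390 against 7899 CPM, with a median log2 fold of -0.95. The other myeloid cells are not of 1 kind. The neutrophil genes S100a8 and S100a9 had 179.8 CPM (in 2.10% of cells) and 250.5 CPM (in 0.699%) in them and 0 UMIs in the Mrc1 macrophages, and 12 genes of pericytes and smooth muscle summed to 527 CPM against 49.8 CPM.

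The calls were recomputed within Xist-only and within Y-only cells, which are subsets of the same cells. Of the 82 genes called higher than in the Marco-gate cells 68 were called in both sexes, and of the 149 called lower 110. Against the other myeloid cells 161 of 243 and 75 of 156 were called in both. The same direction in both was found for 82, 148, 243 and 151 of these genes.

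The Mrc1 macrophages were not uniform. When the 1389 myeloid cells were clustered on 1000 variable genes, they fell into 7 clusters, and 4 of these held 489 of the 499 Mrc1 macrophages. Clusters are numbered by size and were made from the same cells, so the levels that follow describe them without a test. Cluster 1 held 199 of the Mrc1 macrophages (39.9%) together with 332 Marco-gate cells, and was led by Cd209d, Mmp9, Ccl8, Clec10a, Cd209g and Cd209f. Cluster 3 held 182 (36.5%) and was led by the acinar genes Pla2g1b, Cpa1 and Clps. Cluster 4 held 55 (11.02%), led by Ear2 and Ltb4r1, and cluster 5 held 53 (10.6%), led by Nes, Olfml3, Cd72 and Cx3cr1. These last 2 clusters also held 121 of the 143 other myeloid cells. At a higher resolution of 0.8, which gave 11 clusters, the cluster with the most Cd209f held 8.62% of the Mrc1 macrophages in place of 39.9%.

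Within the rule the label genes were uneven. Cd209f had 663 CPM in the Mrc1 macrophages of cluster 1 (a UMI in 48.7% of cells), 311 CPM in those of cluster 3, 141 CPM in those of cluster 4 and 10.7 CPM in those of cluster 5. Folr2 had 1366, 1087, 197 and 128 CPM in the same order, Cbr2 1286, 1150, 219.6 and 259.6 CPM, and F13a1 2247, 1619, 955 and 284 CPM. Lyve1 had 1351, 628, 121 and 8.03 CPM, and Cd163 673, 640, 46.0 and 112 CPM. Mrc1 varied least of these 7, at 2591, 2757, 953 and 1274 CPM. The label genes other than Mrc1 were thus low in the 108 Mrc1 macrophages of clusters 4 and 5, apart from F13a1 in cluster 4.

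H2-Ab1 of MHC class II and the receptor Ccr2 were higher in clusters 4 and 5 instead. H2-Ab1 had 2353 and 2752 CPM in clusters 1 and 3 but 6629 and 8293 CPM in clusters 4 and 5. Ccr2 had 55.5, 40.2, 1147 and 878 CPM. Cx3cr1 split the pair, with 100.4 CPM in cluster 4 and 1076 CPM in cluster 5, and stood at 554 CPM in cluster 3 against 105 CPM in cluster 1. Ear2 (909 CPM), Lyz1 (3607 CPM), Fn1 (2871 CPM) and Tnip3 (1055 CPM) had their highest levels of these clusters in cluster 4, where C1qa was at 1945 CPM against 5371 CPM or more in the other 3. Of these clusters Trem2 was highest in cluster 5, at 426 CPM. If the comparison with the Marco-gate cells is limited to the Mrc1 macrophages of clusters 1 and 3, the log2 fold of Ear2 is -2.71, like Lyz1 and Tnip3 above the opposite of that with every cluster kept. The log2 folds of H2-Ab1 at 1.78, Cd74 at 1.57 and Cx3cr1 at 4.47 kept their direction there.

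Clusters 1 and 3 had like levels of several resident genes and unlike levels of acute response genes. Pf4 had 4329 and 4422 CPM, Sepp1 4454 and 4837 CPM, and C1qa 5371 and 6225 CPM in clusters 1 and 3. The stress-inducible factor Atf3, chosen after its values were seen like Fos and Ccl7 here, had 2228 against 171 CPM, Fos 4902 against 1177 CPM, Ccl2 3503 against 254 CPM and Ccl7 2510 against 137 CPM. Acinar genes summed to 2395 CPM in the Mrc1 macrophages of cluster 1 and 9387 CPM in those of cluster 3. The median depth was 7412 UMIs in cluster 1 and 6052 in cluster 3, and the part of depth and acinar RNA in this split was not tested.

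**Figure D4:**
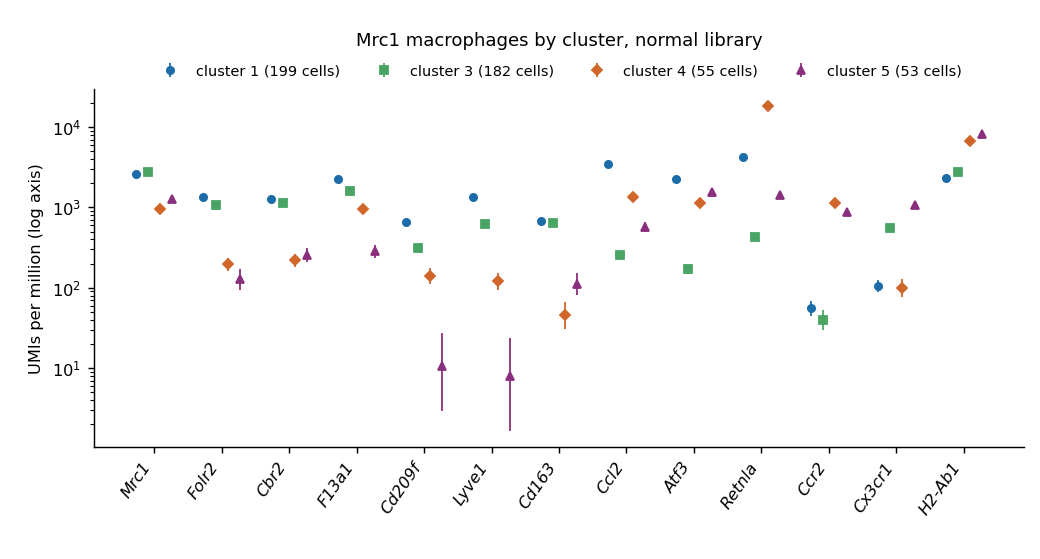
CPM (log axis) of 13 genes in the Mrc1 macrophages of the 4 clusters that hold 489 of them, with exact Poisson 95% intervals. Lyve1 and Cd209f are highest in cluster 1 and lowest in cluster 5, and H2-Ab1 and Ccr2 are higher in clusters 4 and 5 than in clusters 1 and 3.

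Retnla, the resistin-like alpha of alternatively activated macrophages, varied widely between single cells. It had 4947 CPM over all Mrc1 macrophages, but a UMI in 40.5% of them, with a median of 0, a 90th percentile of 135 and a highest value of 1012 UMIs per 10000. By cluster it had 4220, 433, 18094 and 1429 CPM in clusters 1, 3, 4 and 5. It did not go with Lyve1 across the cells (Spearman rho 0.02, n = 499). Its level in the Marco-gate cells was 6674 CPM and in the other myeloid cells 7102 CPM. In endothelial-gate cells Retnla had 43.3 CPM with a UMI in 15.6% of cells, so low counts of Retnla in a cell cannot be told from background.

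The same rule took 13 of 2573 cells of the tumour library. The 44 myeloid cells of that library were 1.71% of its cells (1.25 to 2.29), against 30.1% in the normal library (28.8 to 31.4). The tumour library was also sorted for PDPN, held no Y-only cell and came from older mice. Sort, digestion, sex, age and tumour thus cannot be told apart. All 13 had UMIs of Xist and none of the Y-linked genes. They shared no barcode with the Mrc1 macrophages, and 4 barcodes were common to both libraries in all. With 170513 UMIs from 13 cells these sums rest on few cells.

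The label genes other than Mrc1, perivascular genes and Retnla were higher in the normal cells, and Arg1, Spp1, Vegfa and Il1b in the tumour cells. Of 6422 genes 404 (6.29%) were called higher in the normal Mrc1 macrophages and 563 (8.77%) lower, and against all 44 tumour myeloid cells it was 506 (7.95%) and 563 (8.84%). Neutrophil markers summed to 8499.9 CPM in those 44 cells, to 41.1 CPM in the 13 and to 22.9 CPM in the normal cells. Mrc1 had 2176 CPM in the tumour cells against 2194 CPM, and a UMI in 13 of 13 cells. The rule required the sum of the Cd209f gate in both classes and no single gene of it. The levels of its genes in this comparison are therefore a description. C1qa, a gene of the myeloid gate that both classes had to pass, had 5607 against 5050 CPM. Apoe had 17829 against 23741 CPM and Cd74 7823 against 9768 CPM. The label genes were otherwise lower in tumour cells. Cd209f had 0 UMIs, which allows 17.6 CPM, and was at least 21.7-fold higher in the normal cells. Folr2 had 117 CPM (20 UMIs in 7 cells) against 939 CPM, F13a1 680 against 1603 CPM, Clec10a 64.5 against 374 CPM, and Cbr2 205 CPM against 937 CPM, with 62.9% of its tumour UMIs in 1 cell. Of 21 perivascular genes, a list chosen with earlier results of these data known, 17 were called higher in the normal cells and none lower. Their median log2 fold was 2.02, with Lyve1 at 763 against 152 CPM, Gas6 at 522 against 141 CPM and Pf4 at 3451 against 803 CPM.

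Retnla had 4947 CPM in the normal cells and 4 UMIs, all in 1 tumour cell. The lipid genes Cd36, at 608 against 70.4 CPM, and Pltp, at 1216 against 170 CPM, were higher in the normal cells as well. So was the factor Klf2 at 1400 against 211 CPM. Csf1r, the receptor of the macrophage growth factor, had 1193 against 563 CPM. It belongs to the myeloid gate that both classes had to pass, so its level is a description. Of 15 measured acinar genes 11 were called higher in the normal cells.

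Among the genes higher in the tumour cells were enzymes, secreted factors and proteases. Arg1, arginase 1, had 1759 CPM (300 UMIs in 8 of 13 cells) against 0 UMIs in all 499 normal cells, at least 2129-fold more. It was not absent from the normal library. There it was among the genes leading cluster 6, which held 30 myeloid cells, 26 of them Marco-gate cells. Spp1, osteopontin, had 633 CPM in 6 of 13 cells against 1.38 CPM, and Vegfa, the vascular growth factor, 557 CPM in 10 of 13 cells against 5.51 CPM. Il1b had 3003 against 249.5 CPM, Thbs1 2023 against 32.8 CPM, the protease Ctsl 1202 against 183 CPM, Tgm2 581 against 5.23 CPM and the acid phosphatase Acp5 528 against 10.2 CPM. Fabp5 had 1249 against 42.4 CPM, but 73.7% of its UMIs came from 1 cell. The neuregulin gene Nrg1 had 33 UMIs against 0, at least 234-fold more. Pdpn, the gene of the antigen that the tumour sort used, had 11 UMIs in the tumour cells and 2 in the normal ones. Of the 14 fibroblast markers 11 had a UMI in the 13 tumour cells. The list summed to 487 CPM there, against 275 CPM in the normal cells. Those at 0 UMIs, which allows 17.6 CPM, were Pdgfra, Clec3b and Fbln1.

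By list, of 24 measured inflammatory genes 11 were called lower in the normal cells and 1, Cxcl1, higher. The log2 fold of Cxcl1 was -0.27 with the Cd209f gate at 5 and -1.43 against all 44 tumour myeloid cells, so its direction rests on the choice of cells, and the 44 include those with neutrophil markers. Of 23 measured genes of matrix proteases and inhibitors 12 were called lower and 3 higher, and of 31 lysosome genes 7 lower and none higher. Of 13 measured MHC class II genes 2 were called lower, Ctss and Cd80, and none higher, with a median log2 fold of 0.29. When the Cd209f gate was raised to 20, the count called higher in normal cells was 184 in place of 404, and after thinning each cell to 3500 UMIs it was 129. Scaling by the trimmed mean of ratios in place of the total moved the log2 folds of all genes by 0.11 at the median.

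**Figure D5:**
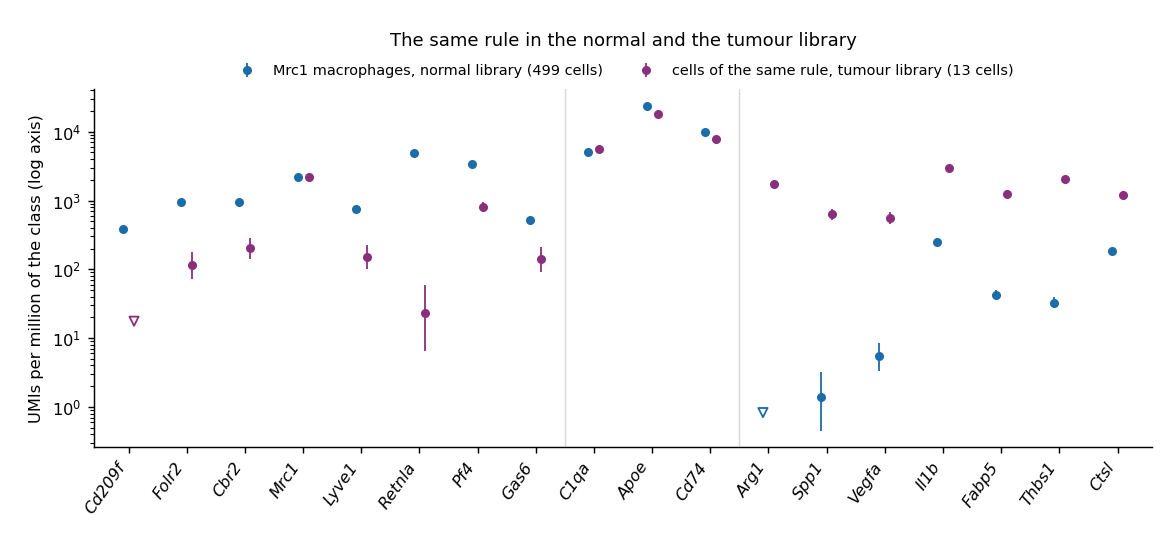
CPM (log axis) in the 499 Mrc1 macrophages of the normal library and in the 13 tumour cells of the same rule, with exact Poisson 95% intervals; an open triangle marks 0 UMIs and stands at the level of 3 UMIs. Label genes other than Mrc1 and Retnla are higher in the normal cells, C1qa, Apoe and Cd74 lie close together, and Arg1, Spp1 and Vegfa are higher in the tumour cells. Cd209f, Folr2, Cbr2, Mrc1 and C1qa are genes of the rule that chose both classes.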

How the data were processed

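The deposited values are UMI counts per gene and cell barcode in 27998 genes, made by the authors with Cell Ranger 3.1.0 on mm10 per the submitters' processing notes, from 1 normal and 1 tumour library of the 10x 3′ assay. The cell type gates were applied to counts per 10000 UMIs. Counts were summed over the cells of a class and divided by the class total (CPM), with exact Poisson 95% intervals of a sum and exact binomial intervals of a ratio of sums. The normal library held 36675424 UMIs and the tumour library 33285044. PCR duplicates are removed by the UMIs, and all intervals and floors cover counting error only. Where a sum was 0, a floor of 3 UMIs over the class gave the bound. Genes with at least 20 CPM in either class were measured, and a call needed 2-fold, an interval without 1 and 50 CPM. Calls were tested on simulated sums with counting error only, without differences between single cells. In the comparison with the 13 tumour cells 107 of 5760 unchanged genes were called there, and 36 of 50 genes raised 2.5-fold. Its counts are thus less firm than those of the other comparisons. The effect of differences between single cells on the calls was not tested by this simulation.

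Cells were clustered with Scanpy 1.11.5 (1000 variable genes, 20 principal components, 15 neighbours, Leiden resolution 0.4). Scrublet's own threshold marked 112 normal cells (2.43%) and 2 tumour cells (0.0777%). Doublets were kept, and an alternative removed the 3.68% and 2.06% of cells with the highest scores, 5 of the 499 among them.

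The members and lists were chosen with earlier results of these data known. The genes named are the genes of the rule and label, Fabp4, Ptprc and Adgre1, and the 15 with the highest level. To these come, in each comparison, the 12 highest and 12 lowest folds among called genes found in 10% of cells of the higher class (25% for tumour), leaving out mitochondrial, ribosomal, sex-linked and unnamed genes. Of each list the 3 highest levels and the 2 highest and 2 lowest folds were named. Markers at 0, genes leading a cluster, Atf3, Ccl7, Il6, Iigp1, Cxcl10, H2-DMa and Ltc4s were chosen after their values were seen. Promoter windows come from RefSeq (GRCm38.p6). Some genes that this rule names are not reported here. Alternatives covered the cell filter, doublets, cell weights, scaling, gates, depth, sex, thresholds and clusters.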

Additional observations from a re-analysis of the deposited data

How the results depend on the processing

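Each alternative changed 1 choice. The number of Mrc1 macrophages, 499, was 447 with the strict cell filter, 411 with the Cd209f gate at 20, 562 with it at 5, 193 in Xist-only and 196 in Y-only cells, and 914 with Fcna left out of the Marco gate. With 3-fold calls, 44 genes were called higher and 75 lower than in the Marco-gate cells, 125 and 66 against the other myeloid cells, and 230 and 283 against the tumour cells. Without the minimum of 50 CPM the counts were 160 and 224 against the Marco-gate cells and 453 and 297 against the other myeloid cells. With Fcna left out of the gate 173 genes were called higher than in the Marco-gate cells, and 46.6% of the calls were on the higher side in place of 35.5%. Against the tumour cells 184 genes were called higher with the Cd209f gate at 20 and 129 in thinned cells. The cluster with the most Cd209f held 8.62% of the Mrc1 macrophages at resolution 0.8. Of 1800 recomputed log2 folds of 120 folds named in the text, 1241 stayed within the counting error of the main value and 553 moved beyond it, the most with clusters 1 and 3 only (71 of 120) and with the Cd209f gate at 20 (70 of 120). The other 6, all of called genes, changed direction: Lyz1 against the Marco-gate cells with the Cd209f gate at 20 (-0.31), Lyz1 (-2.37), Tnip3 (-1.56) and Ear2 (-2.71) with clusters 1 and 3 only, and Cxcl1 against the tumour cells with the gate at 5 (-0.27) and with all tumour myeloid cells (-1.43). In 24 of the rest the sign turned for a gene that was not called. The cause was not tested. The alternatives without Fcna, on clusters, on all tumour myeloid cells and on resolution were chosen after seeing the data. The tumour library held no Y-only cell of the rule, so that comparison has no value in male cells. No paired analysis was possible because each group is 1 library. The 13 tumour cells allow a gene with 0 UMIs a level of up to 17.6 CPM, against 0.826 CPM in the 499 normal cells.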
